A study of Drosophila melanogaster with 4 samples.

Results

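The data described here are 60 stretches of the fly genome, called runs, in which 5 or more called peaks followed each other closely. The deposited peak list of the series held 9485 peaks, of which 1668 lay on the chromosome arms. Arm peaks were sorted by their first base, and neighbours with a gap of 500 bp or less were chained. Of the 1014 groups formed in this way, 60 held 5 or more peaks (5.92% of groups), and these runs contained 384 peaks, which is 23.0% of arm peaks and 4.05% of the list. The members were chosen by the positions of the peaks alone, so the numbers of peaks, the lengths, the gaps and the peak widths below are descriptions and carry no test. Scores did not enter the choice.

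The series measured chromatin of Drosophila melanogaster embryos, with 2 libraries from immunoprecipitated chromatin (ChIP) and 2 from input DNA, all labelled as strain Hr46-GFP, genotype PBac{y[+]-attP-3B}VK00033 with a transgene that holds the Hr46 genomic coding region, and stage 0-8 with no unit. The extraction protocol in the labels describes y; bw cn sp flies and another collection window. The ChIP libraries were made with a mouse monoclonal antibody whose stated target is tango, the sample titles name TCF and the strain names Hr46, so no protein is assigned to the peaks here. The list is 1 for the whole series and holds no values per library. Read depth is therefore unknown, replicate error cannot be given, ChIP and input were not compared, and peaks are not replicates of a condition.

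Chromatin immunoprecipitation with sequencing pulls down DNA held by a protein of interest, and a peak caller reports stretches where fragments exceed the background. Tango is the fly ARNT, a basic helix-loop-helix PAS protein that pairs with tissue-specific partners such as single-minded and trachealess and binds short sites in enhancers. TCF (pangolin) carries the output of the Wingless pathway to its target genes together with armadillo. Hr46 belongs to the nuclear receptors and acts in the ecdysone response. For proteins of these kinds, a peak is usually a narrow interval around a site, whereas a run is a longer stretch in which called intervals nearly touch. Genes and DNA sequence at the runs were not used here.

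Runs occurred on each of the 5 long arms. Arm 2L had 15 of them, 2R had 13, 3L had 14, 3R had 8 and X had 10, and none of the 13 peaks of chromosome 4 belonged to one. Relative to the span from the first to the last peak of an arm, 2L carried 0.662 runs per Mb, 2R 0.615, 3L 0.573, X 0.446 and 3R 0.287. Peaks in runs made up 28.8% of the 278 arm peaks of 2R, 25.9% of the 359 on 3L, 25.6% of the 379 on 2L, 19.0% of the 331 on X and 16.6% of the 308 on 3R. Differences between arms were not tested.

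The 60 runs spanned 462 kb in all, with peaks over 87.2% of that length. Run length had a median of 8267 bp, quartiles of 6726 and 8745 bp, and a range from 2997 to 14198 bp. Lengths piled up at 8 to 9 kb, with 31 of the 60 runs (51.7%) in that class, which was known from earlier results of these data. The share depended on the rule, since it was 11.8% when gaps were limited to 200 bp (17 runs) and 36.7% when 4 peaks were enough (98 runs). It was 58.9% with gaps of up to 1000 bp (95 runs) and 60.5% with a minimum of 6 peaks (38 runs). Within the class, 19 runs measured 8.5 kb or more and 12 measured less. Another 5 runs were 9 kb or longer, and 24 were shorter than 8 kb. On 3L, 11 of 14 runs fell in the class. The counts were 6 of 15 for 2L, 6 of 13 for 2R, 4 of 8 for 3R and 4 of 10 for X. The shortest run of 3L, at 7202 bp, was longer than the shortest runs of 2R (2997 bp), 2L (3406 bp), 3R (4302 bp) and X (5458 bp).

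**Figure D1:**
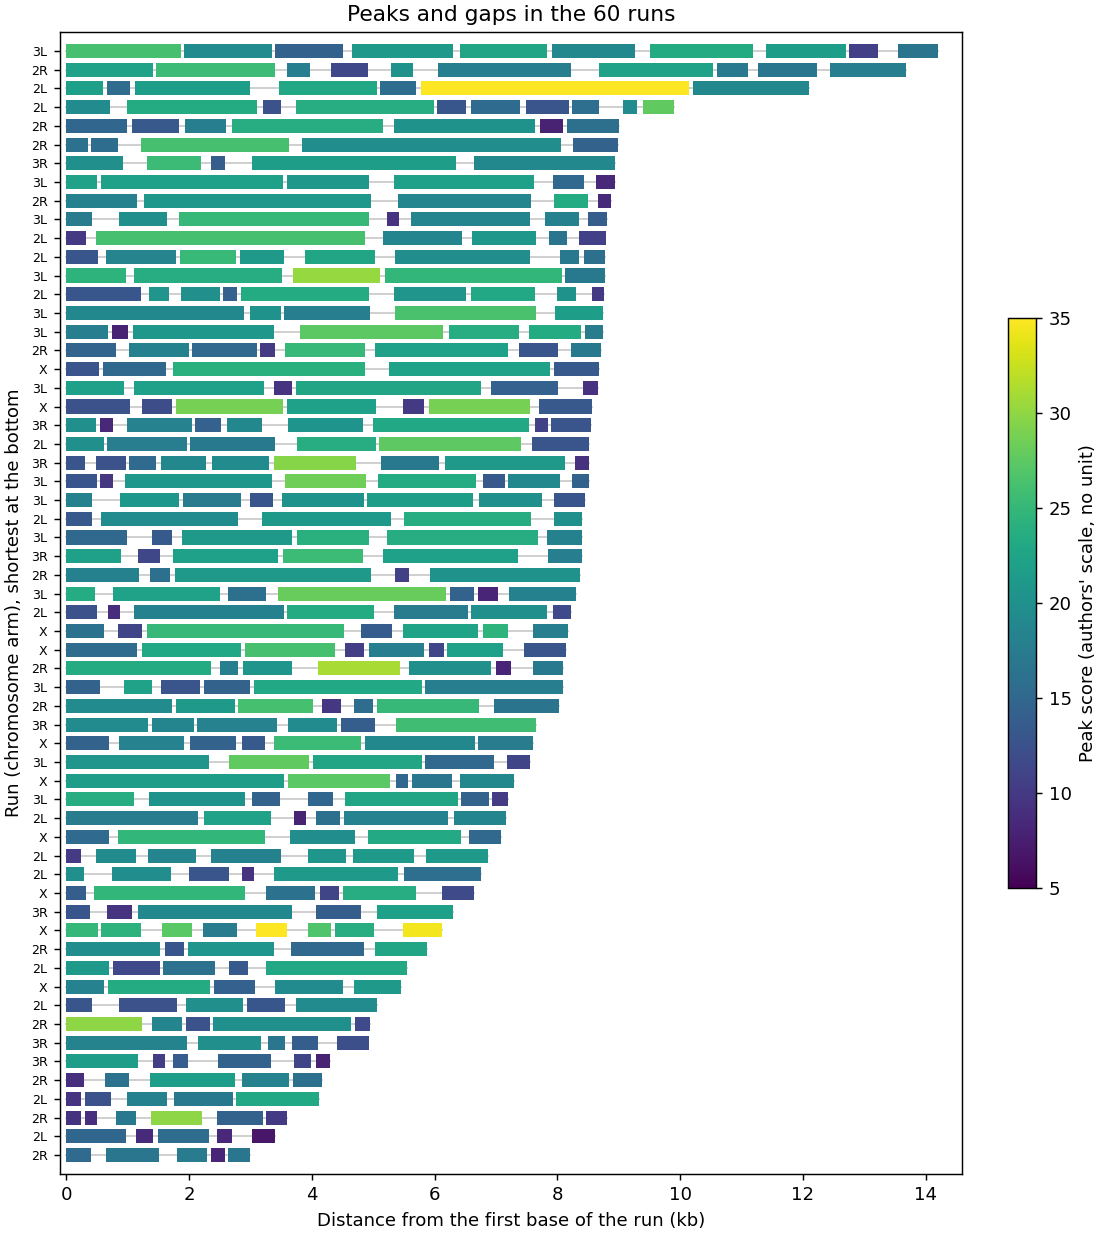
Peaks (coloured bars) and gaps (grey lines) of the 60 runs, drawn from the first base of each run in kb and ordered by length, with the chromosome arm at the left and colour for the peak score on the authors' scale. The right edges of 31 runs stand between 8 and 9 kb, and the longest run reaches 14198 bp.

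Runs of 6 to 9 peaks had similar median lengths, between 8089 and 8549 bp. Runs of 5 peaks were the most frequent (22 runs, median length 6694 bp), followed by 13 runs of 6 peaks (8089 bp) and 13 of 7 peaks (8227 bp). The 6 runs of 8 peaks had a median of 8485 bp and the 3 runs of 9 peaks one of 8549 bp. All 3 runs of 9 peaks, 5 of the 6 with 8 peaks and 8 of the 22 with 5 peaks were 8 to 9 kb long. Runs of 8 to 9 kb thus held from 5 to 9 peaks. Groups of 2 to 4 peaks, of which there were 199, had a median length of 2680 bp, and 7 of them were 8 to 9 kb long. Since more peaks make a longer group by construction, the shorter median of these groups is no finding.

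**Figure D2:**
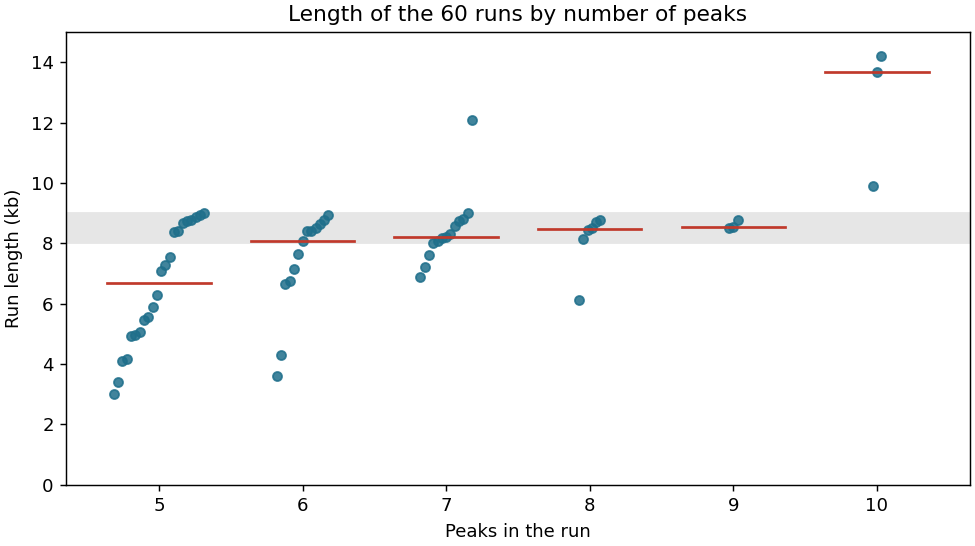
Length of each of the 60 runs in kb against its number of peaks, with red lines at the medians and the class of 8 to 9 kb shaded. Runs of 5 peaks spread from 2997 to 8992 bp, the 3 runs of 9 peaks lie between 8517 and 8761 bp, and those of 10 peaks reach 14198 bp.

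Runs of 8 to 9 kb mostly stood free, while shorter and longer ones often had a further peak close by. A peak outside the run lay within 1 kb of 1 of the 31 runs in the class, of 15 of the 24 shorter runs and of 4 of the 5 runs of 9 kb or more. The median distance to the nearest outside peak was 48485 bp for the class and 722.5 bp for the shorter runs. When gaps of up to 1000 bp were allowed, 6 of the shorter runs became chains of 8 to 9 kb. Among them, the run of 4947 bp on 2R from 10358819 grew to 8349 bp, and the run of 5067 bp on 2L from 2100477 grew to 8944 bp. A further 17 of the 24 stayed below 8 kb and 1 rose above 9 kb. With the wider limit 36 of the 60 runs lay in chains of 8 to 9 kb.

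**Figure D3:**
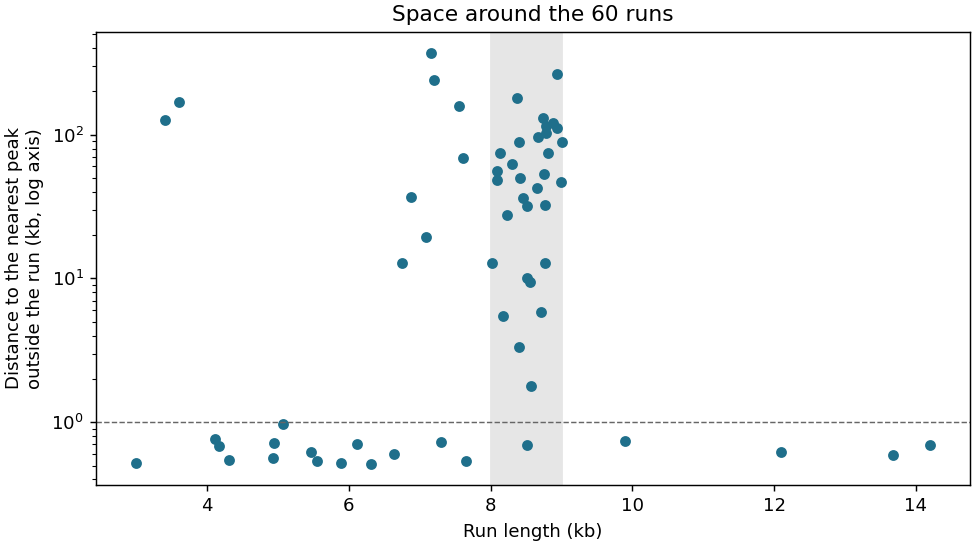
Distance from each of the 60 runs to the nearest arm peak outside it (kb, log axis) against run length (kb), with the class of 8 to 9 kb shaded and a dashed line at 1 kb. Below the line lie 15 of the 24 runs shorter than 8 kb, 1 of the 31 in the class and 4 of the 5 longer ones; no run can lie at 500 bp or less because of the gap limit.

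The 3 runs longer than 12 kb resembled each other in total extent. The longest lay on 3L from 13801692 to 13815889 and held 10 peaks, whose scores had a median of 20.3. The next, on 2R from 21033130 to 21046811, also held 10 peaks, and the third, on 2L from 6427203, held 7 peaks over 12094 bp. With gaps of up to 1000 bp they extended to 18009, 17553 and 17743 bp, with 13, 14 and 11 peaks. The fourth run above 9.5 kb, on 2L from 21441294 to 21451190, held 10 peaks over 9897 bp and lay in the densest 100 kb window of the arms, which held 48 peaks. It grew to 11917 bp with the wider limit.

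Gaps inside runs were short. The 324 gaps had a median of 156 bp, with quartiles of 74 and 265.5 bp, and 125 of them (38.6%) were under 100 bp. The narrowest measured 50 bp, which was also the narrowest gap between any 2 neighbours in the whole list. Wide gaps were spread thinly over the runs. There were 67 gaps of 300 bp or more in 46 runs, and 30 runs had exactly 1 such gap, 16 had more and 14 had none. The widest gaps just inside the limit measured 485 bp in a run on 3R from 26144548, 478 bp in one on 2L from 21981918 and 477 bp in one on 3R from 21551975. Just outside it, a chain of 4 peaks on 3L from 19847189 missed a further neighbour at 502 bp, another on 3L from 23973997 missed one at 510 bp, and one on 2L from 18052013 missed one at 529 bp. Neighbours on the arms were about as frequent on both sides of the limit, with 56 gaps above 400 and up to 500 bp and 50 above 500 and up to 600 bp.

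When the longer runs were aligned to one of them, gaps of 100 bp or more often fell at like places, and gaps of 300 bp or more did so less often. The 32 runs of 8 to 9.5 kb were compared in bins of 50 bp, each run being allowed to be reversed and shifted by up to 800 bp, and the run with the highest mean correlation to the others served as the reference. This reference lay on 3L from 20107009 to 20115941 and held 6 peaks of 497, 2973, 1333, 2284, 512 and 297 bp. Its widest gaps measured 404 and 304 bp, with centres 5.13 and 7.77 kb from its first base, 2638 bp apart. Of the other 31 runs, 26 had a gap of 100 bp or more within 150 bp of the first place, 23 had one at the second and 18 had both, while none had neither. Counting gaps of 300 bp or more alone, 14 had one at the first place, 12 at the second, 5 at both and 10 at neither. Without reversal, 11 runs in place of 18 had a gap of 100 bp or more at both places. The best position was in the direction of the reference for 19 runs and reversed for 12, and 22 runs were shifted by 200 bp or less. Correlations with the reference ranged from 0.17 to 0.82, with a median of 0.49 over these 31 runs. Position and direction were chosen for the best match, which favours shared gaps, so these counts are a description.

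The alignment itself favours low coverage at these places, and the reference is among the 32 runs averaged, so the mean profile is only a picture of the aligned set. Mean coverage fell below 50% in 12 bins, 6 between 4950 and 5250 bp and 6 between 7600 and 7900 bp of the reference, with lowest values of 20.0% and 22.2%. In bins more than 400 bp from both places, median coverage was 95.5% and the lowest was 60.0%. The lower values there came in bins starting at 500 bp (60.0%) and at 3550 bp (61.4%). The reference had narrower gaps of its own there, of 61 and 69 bp, so bins away from both places are not free of its gaps.

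**Figure D4:**
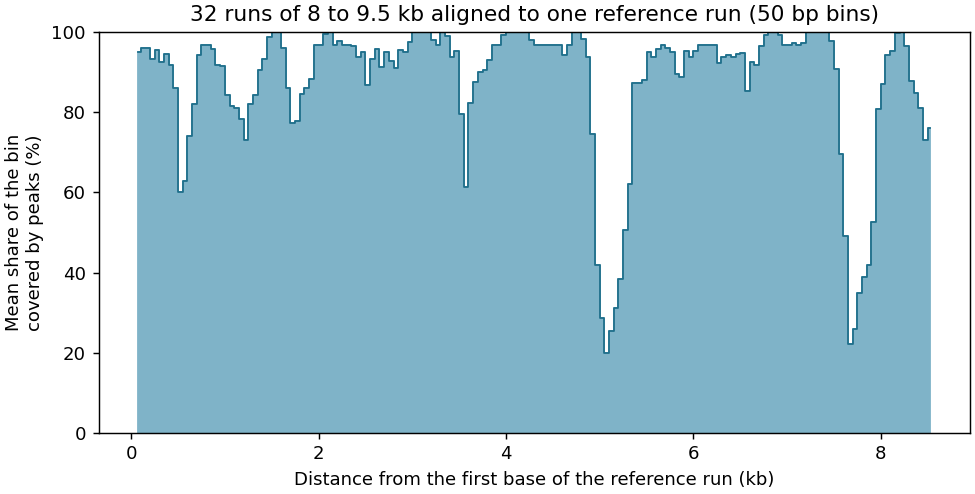
Mean share of each 50 bp bin covered by peaks (%) in the 32 runs of 8 to 9.5 kb, against distance along the reference run (kb), for bins reached by at least 20 runs. Coverage drops to 20.0% near 5.1 kb and to 22.2% near 7.7 kb and has a median of 95.5% in bins more than 400 bp from the centres of both gaps.

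The 32 aligned runs formed 496 pairs, with a median best-match correlation of 0.40 and a lowest of 0.10. The best matching pairs, named here, shared the gaps on both sides of a peak of 2171 to 2291 bp, but not all of their other gaps. The closest pair was the reference and a run on 2R from 5239906 to 5248779, which correlated at 0.82. That run held 5 peaks of 1155, 3703, 2171, 547 and 205 bp, so a 429 bp gap preceded its 2171 bp peak and a 374 bp gap followed it, where the reference had gaps of 404 and 304 bp around a 2284 bp peak. The reference and a run on 3L from 11492380 to 11501125 correlated at 0.73, and in the latter gaps of 410 and 304 bp enclosed a 2291 bp peak. The run on 2R also correlated at 0.73 with one on 3R from 21551975 to 21560369, whose 2204 bp peak lay between gaps of 336 and 477 bp. In all 4 runs a peak of 2171 to 2291 bp was thus bordered by gaps of 304 bp or more on both sides. These runs were picked for their best match, so the shared feature is a description. The next pair, at 0.71, joined runs on 3L from 6214545 and on 2R from 14478478, and neither held a peak of that width.

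Distances between gaps were also counted without alignment, in the same runs and gaps, so they are no further support for the layout. In the 32 runs of 8 to 9.5 kb, 14 (43.8%) held a pair of gaps of 100 bp or more with centres 2600 to 2800 bp apart. This class holds the 2638 bp distance of the reference itself, which is among the 32 runs. Its count was the highest of any 200 bp class of distances, followed by 10 runs at 3200 to 3400 bp and 9 each at 400 to 600 and 3800 to 4000 bp. Among the other 28 runs, 5 (17.9%) had such a pair, and among the 93 groups of 3 or 4 peaks 2 did, but these have fewer gaps and shorter lengths. The 7 groups of 3 or 4 peaks that were themselves 8 to 9 kb long were not used to choose the reference. Aligned in the same way, again at the best match, 6 of the 7 had a gap at the first place, 4 at the second and 3 at both. The closest of them, on 3R from 15267751 to 15276198, held 4 peaks and correlated with the reference at 0.78.

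Scores in runs had a slightly higher median than those in groups of 2 to 4 and those of single arm peaks scoring under 100. They rarely reached high values. The comparison with single peaks is limited by the score itself. It leaves out the 68 single peaks scoring 100 or more, whose median was 195.5 and which all reached 30. Scores are the authors' own values per peak, with no stated scale. The 384 peaks had a median score of 18.2 with quartiles of 14.2 and 21.95, and their range was 6.82 to 34.97. The median was 16.8 in groups of 2 to 4, with quartiles of 12.5 and 21.8, and 16.5 for single arm peaks scoring under 100, with quartiles of 11.7 and 28.4. In runs 5 peaks reached 30, whereas 159 of the 687 single arm peaks scoring under 100 did so, as did 19 of the 529 peaks in groups of 2 to 4. The medians of the single runs went from 8.53 to 25.9, with quartiles of 16.5 and 19.6. The highest peak of a run scored between 20 and 30 in 52 of the 60 runs, below 20 in 4 and above 30 in the other 4. By arm, the median score of peaks in runs was 17.6 on 2R, 18.35 on 2L, 3R and X, and 19.3 on 3L.

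Peaks in runs were wide compared with single peaks. The rule used the first and last base of each peak, which also give its width. The widths are therefore not independent of the choice of members. Their width had a median of 825 bp and quartiles of 430 and 1384.5 bp, against 631 bp in groups of 2 to 4, 367 bp for single peaks scoring under 100 and 616 bp for single peaks scoring 100 or more. The runs thus held 403 kb, or 31.6%, of all bases covered by arm peaks. Peaks of 2000 bp or more numbered 55 (14.3% of peaks in runs) and occurred in 40 of the 60 runs, and 11 peaks exceeded 3000 bp. The share of 2000 bp or more was close to this in groups of 2 to 4 (12.1%) and was 2.18% for single peaks scoring under 100. At the other end, 44 peaks were narrower than 300 bp (11.5%, against 17.2% in groups of 2 to 4 and 33.8% of the single peaks scoring under 100). Whether width depended on how the caller split a stretch was not tested, and neither were these differences.

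At like width, peaks in runs had lower median scores than single peaks scoring under 100 in each of 5 width classes. Among peaks from 500 to under 1000 bp wide, the 111 in runs had a median score of 17.4 (quartiles 14.45 and 19.96), the 138 in groups of 2 to 4 one of 16.8 (14.2 and 20.6), and the 160 single peaks scoring under 100 one of 25.8 (15.9 and 49.9). Among those from 300 to under 500 bp the medians were 14.45, 14.3 and 18.7. For peaks of 2000 bp or more they came closer together, at 21.95 in runs, 23.5 in groups of 2 to 4 and 24.7 for the 15 single peaks. The upper quartile of the single peaks exceeded that of the runs in each of the 5 width classes. The quartile ranges of runs overlapped those of groups of 2 to 4 and those of the single peaks in every class, and no test was made over peaks.

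**Figure D5:**
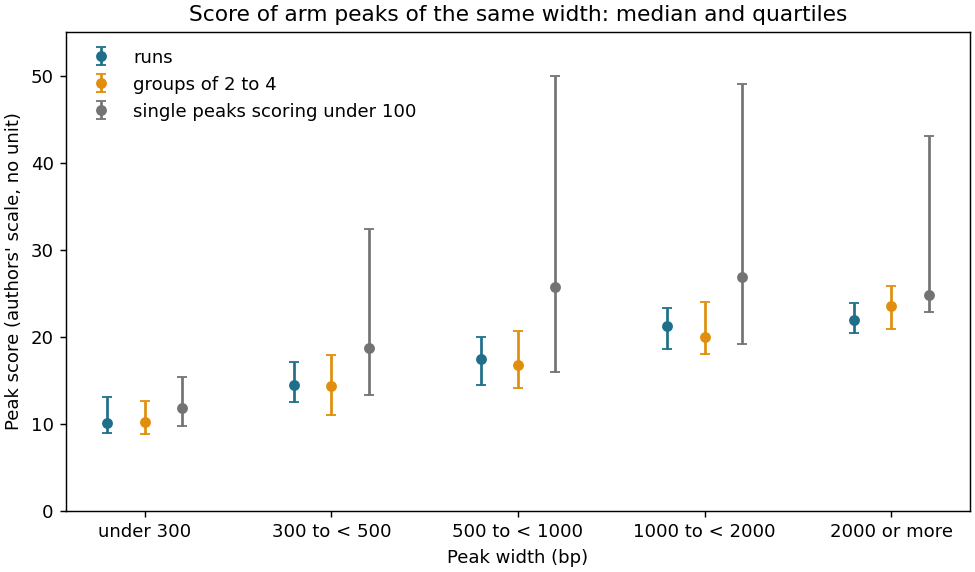
Median peak score (points, authors' scale without unit) with lower and upper quartiles (bars) by peak width in bp, for peaks in runs, peaks in groups of 2 to 4 and single arm peaks scoring under 100. In the class from 500 to under 1000 bp the medians are 17.4, 16.8 and 25.8, and the bars of all 3 sets overlap in all 5 classes.

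Within runs, wider peaks scored higher, which was not particular to runs. Between peaks under 300 bp and those of 2000 bp or more, median scores rose from 10.1 to 21.95 in runs. They rose from 10.2 to 23.5 in groups of 2 to 4 and from 11.8 to 24.7 for single peaks scoring under 100. Spearman's rho between score and width had a median of 0.77 over the 60 runs and was positive in 58 of them, and over all 384 peaks it was 0.70. Peaks of a run share their neighbourhood, and no p is given. The narrowest peak was also the one with the lowest score in 42 runs, while the widest had the highest score in 27. The 264 inner peaks had a median width of 940.5 bp and a median score of 19.0, and the 120 end peaks one of 649.5 bp and 17.1. The highest score was at an inner peak in 49 of 60 runs, where inner peaks make up 68.75% of the members. The widest peak took up a median of 29.7% of the run.

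A run on X stood apart from the others in several respects. It lay from 13946232 to 13952350 and held 8 peaks with widths of 512, 648, 477, 548, 506, 376, 637 and 637 bp. Its peaks thus measured from 376 to 648 bp, and the widest took up 10.6% of the run, the lowest share of all 60. Their scores, in the same order, were 25.03, 24.24, 27.35, 17.51, 34.97, 26.74, 23.65 and 34.49. Its median score of 25.9 and its highest score of 34.97 were the highest of any run, and its rho between score and width was -0.42, the lowest. A chain of 4 peaks lay 909 bp before it and another 706 bp after it, and together these formed 16 peaks over 14388 bp. The chain that followed it began with a peak scoring 41.08. The other run with a negative rho was that on 3L from 11492380, with -0.10.

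Other runs at the extremes were short. The lowest median score, 8.53, belonged to a run of 5 peaks on 2L from 17273953 to 17277358, whose highest score of 15.6 was also the lowest such value of any run. The shortest run, on 2R from 219616 to 222612, had 5 peaks with a median score of 16.8. Among the runs with most peaks, those of 9 peaks on 3R from 10020589 to 10029137 and from 4427940 to 4436456 had median scores of 18.35 and 17.1, and the one of 9 peaks on 2L from 996956 had one of 20.3. The run of 8 peaks on 2L from 21981918 had a median of 19.1, the one on 2R from 17626183 had 16.1, those on 3L from 6416529 and from 6214545 had 16.7 and 19.0, and the one on X from 2718138 had 16.6. All of these runs of 8 or 9 peaks were between 8138 and 8781 bp long.

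Along the arms, runs were spread widely. Neighbouring runs on an arm lay a median of 1561 kb apart, from 12.7 to 8036 kb. The closest were on 2L, where 12708 bp separated the run from 996956 from the one before it, and on 2R, where 62077 bp separated the run from 17696976 from the one before it. When each long arm, taken from its first to its last peak, was divided into 4 equal parts from the centromere end outwards, the parts held 11, 14, 17 and 18 runs. The part nearest the centromere thus held 18.3% of the runs, beside 38.6% of the 197 groups of 2 to 4 peaks and 34.4% of the 678 single peaks scoring under 100 on these arms. The share was 22.1% for the 68 single peaks scoring 100 or more. Peaks in a dense stretch are not independent, and the difference was not tested.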

How the data were processed

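The deposited data are 1 peak list of the whole series; per the file headers its coordinates are on FlyBase release 5 and its peaks come from MACS. The list gives the authors' score per peak, with no unit, and its first and last base. Per the submitters' processing notes, the build was BDGP5 and the tools named, with no roles, were BWA, MACS2, CASAVA 1.7.0.2 and CASAVA 1.7.0.3. Not given in the sources used here are the peak threshold, the use of input, any pooling of replicates and the placing of reads with several matches. Where reads from repeated DNA were placed could change which runs exist.

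Coordinates are 1-based, width is last minus first base plus 1, and a gap is counted in bases between neighbouring peaks. Run length goes from the first base of the first peak to the last base of the last. Layouts were compared by Pearson correlation of coverage in 50 bp bins. Chaining was tested on simulated peaks. Alignment was tested only on simulated layouts made from the same template, so how often unrelated runs would share gaps was not tested. The software was Python 3.11.15 with scipy 1.17.1, matplotlib 3.10.9, pandas 2.3.3 and numpy 2.4.6. The members, length class and comparisons were chosen with earlier results of these data known. Runs named are those with most peaks (10, and the first of each arm), the extremes of length and score, the best matching and closest pairs and the chains nearest the limit; others named were chosen after their values were seen. Alternatives changed the gap limit, the minimum number of peaks, the score limit and the regions kept. Sequence and gene annotation were not used here.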

Additional observations from a re-analysis of the deposited data

How the results depend on the processing

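No paired analysis was possible because no peak can be traced to a library, so the shared replicate numbers cannot be used and no library could be left out. A gap limit of 200 bp gave 17 runs with 97 peaks, a median length of 7148 bp, 11.8% of runs in the class of 8 to 9 kb, a median peak width of 938 bp and 92.8% of length covered. A limit of 1000 bp gave 95 runs with 636 peaks, 58.9% of runs in the class and 83.6% of length covered. A minimum of 4 peaks gave 98 runs, whose median length was 7120.5 bp, and 36.7% of them fell in the class. A minimum of 6 peaks gave 38 runs, covered over 86.7% of their length, and 60.5% of them fell in the class. Among peaks at or above the median score of the list there were 0 runs with 0 peaks, so lengths and scores have no value there. Without arm 2L peaks covered 87.5% of run length. Without the densest 100 kb window all 7 values stayed close, with 59 runs. The median score of peaks in runs stayed between 18.0 and 18.35 under all alternatives that left runs. The count of runs with both gaps of the reference, 18, was 17 with the run of the next highest mean correlation as reference and 17 with a shift limit of 400 bp, 11 when no reversal was allowed, which leaves fewer positions to choose from, and 5 when gaps of 300 bp or more alone were counted; these 4 settings were chosen after seeing the data.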

Other observations

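Many peaks in runs carried exactly the same score. The 384 peaks took 127 different scores to 2 decimals, and 83.6% of them shared their score with at least 1 other peak in a run. The most frequent values were 19.96, found in 13 peaks, and 21.95, found in 11. In groups of 2 to 4 peaks, 238 different scores occurred among 529 peaks and 69.0% were shared within that set. Among the 687 single arm peaks scoring under 100 there were 317 different scores, with 70.5% shared. A larger set shares more values by its size alone, but the set of peaks in runs was the smallest of these. The sets also differed in range. Scores reached 34.97 in runs, 55.88 in groups of 2 to 4 and 97.69 in the single peaks scoring under 100. Whether size or range affected the shares was not tested.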
